A study of Oryza sativa with 8 samples.

Results

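The tonoplast intrinsic proteins (TIPs) are the aquaporins of the vacuole membrane, and 8 rice loci of this family were followed in seedling roots at a high and a low supply of ammonium. The loci were TIP1;1 (Os03g0146100), TIP1;2 (Os01g0975900), TIP2;1 (Os02g0658100), TIP2;2 (Os06g0336200), TIP3;1 (Os10g0492600), TIP4;1 (Os05g0231700), TIP4;2 (Os01g0232000) and TIP4;3 (Os01g0232100). They were taken by locus identifier from the names of the array's probes. All 8 had at least 1 probe and together they had 26, among 29689 loci with a probe on the array. A RefSeq gene table (assembly ASM3414082v1) names 7 of the 8, all on the chromosome given by their locus identifier, and the name of Os01g0232100 comes from the list of loci alone.

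Aquaporins are channel proteins that let water and, in some members, small uncharged molecules pass through a membrane. TIPs are abundant in many plant roots, where they set how readily water passes between the vacuole and the cytosol. Several of them also carry nitrogen compounds: members of the TIP2 subgroup of Arabidopsis and wheat conduct ammonia, and TIP1, TIP2 and TIP4 members of Arabidopsis conduct urea. In Arabidopsis the TIP3 proteins belong to the protein storage vacuoles of seeds.

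Total RNA of whole roots of the cultivar Koshihikari was hybridised to 1-colour arrays, 4 from seedlings grown for 10 days in 1 mM ammonium chloride and 4 from seedlings grown for 10 days in 0.005 mM ammonium chloride. The arrays of each concentration are described as biological replicates. Ammonium came as its chloride salt, and whether chloride was balanced is not given in the sources used here, so ammonium and chloride supply cannot be told apart. The 4 arrays of each group shared 1 slide and the 2 groups were on different slides, so an effect of the slide and one of ammonium cannot be told apart either. In whole roots, a lower signal from fewer cells of a type and one from less RNA per cell cannot be told apart.

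The share of non-control spots well above background was 81.4% to 85.1% per array. No TIP spot was saturated. Array values correlated across genes at 0.993 to 0.997 within a group and at 0.924 to 0.935 between groups. All 4 listed root markers were well above background on all 8 arrays. Of these 4, 1 was called higher and 3 lower in 1 mM, with a median change of -0.88. On the log2 scale (1 mM minus 0.005 mM) RCc3 changed by 0.94, NIP2;1 by -0.77, Lsi2 by -0.99 and NAR2.1 by -2.31. NIP2;1 is also among the aquaporins listed below. The summed signal of the 4 was 125 to 131 times the array's 75th percentile in 1 mM and 129.6 to 134.7 times in 0.005 mM. Because this sum joins changes in opposite directions, it does not measure root content. All 7 listed green-tissue markers (small subunits of Rubisco and light-harvesting proteins) were also well above background on all 8 arrays. Of these 7, 6 were called higher and 1 lower in 1 mM, and their summed signal was 206 to 244 times the 75th percentile in 1 mM and 75.3 to 90.8 times in 0.005 mM. Of the 3 listed seed storage genes, 1 was called higher and 1 lower, and the other was too dim to test. Beside these counts, 32.2% of all 24937 loci, or probes without a locus, that were tested were called higher in 1 mM. A further 43.8% were called lower. The part of green tissue in the changes of the TIP loci was not tested.

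Of the 8 TIP loci, 7 were bright enough to test. TIP1;1, TIP2;2, TIP4;1 and TIP4;2 rose in 1 mM, TIP2;1 and TIP4;3 fell, and TIP1;2 did not pass the threshold, an adjusted p of 0.05 in limma. Thus 4 of 7 were higher, where 32.2% of all 24937 units tested were (a unit is a locus, or a probe without one), and 2 of 7 were lower, where 43.8% of all units were. In either direction 6 of 7 were called, where 76.1% of all units were. With so wide a response on the array, these shares are not a result about the TIPs, and the sizes and directions of single members are what the rest of the account gives. At least 2-fold, 3 TIP loci rose and 1 fell, against 9.83% and 8.67% of all units. The 1 mM range lay apart from the 0.005 mM range for 6 of the 7 loci, as for 71.6% of all units. The median change of the 7 was 0.88 on the log2 scale (1 mM minus 0.005 mM), and that of all units was -0.09.

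With every probe as a unit of its own, 24 of the 26 TIP probes were bright enough to test. Of these 24, 18 rose, where 33.8% of all 35861 probes tested did, and 4 fell, where 43.1% of all probes did. In either direction 22 of the 24 were called, against 76.9% of all probes, and 21 of the 24 had ranges that lay apart, against 72.4% of all probes. Probes of 1 locus were read on the same arrays from the same samples, so they are not independent measurements. In some loci they are assigned to different transcripts.

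**Figure D1:**
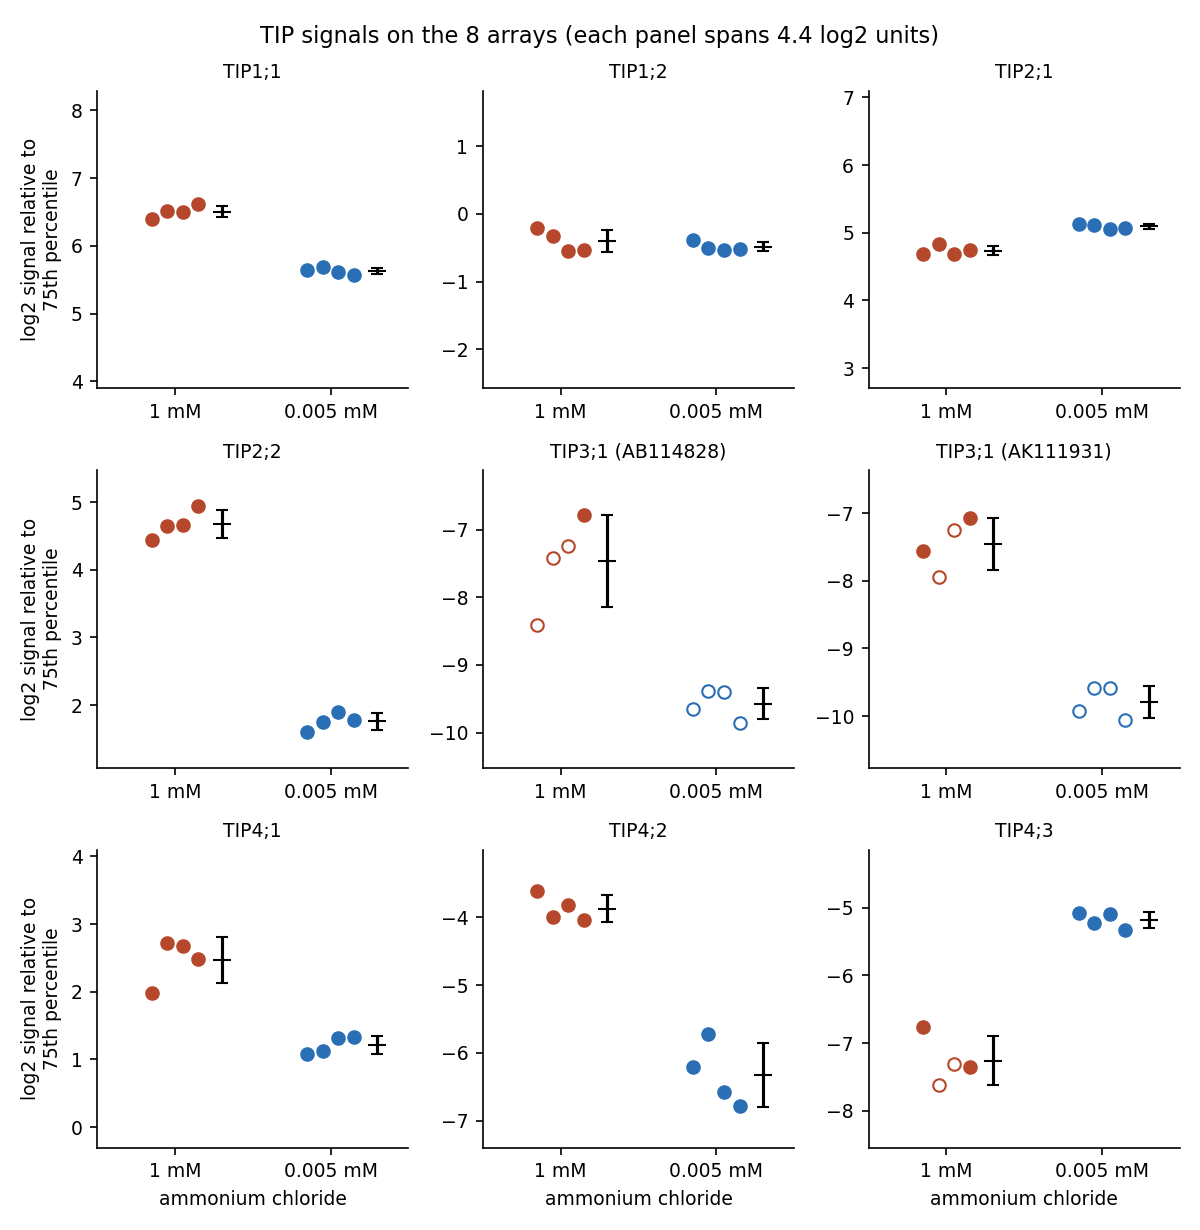
Log2 signal relative to the array's 75th percentile (y axis) on the 4 arrays of 1 mM and the 4 arrays of 0.005 mM ammonium chloride (x axis), for the probe that stands for each TIP locus and both probes of TIP3;1. Points are arrays, open points are spots not well above background, and bars are mean ± SD (n = 4). The groups lie farthest apart in TIP2;2, at 4.44 to 4.94 in 1 mM against 1.60 to 1.89 in 0.005 mM, and overlap only in TIP1;2.

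TIP2;2, on chromosome 6, had the largest change of the 7 tested loci. Its log2 signal, relative to the 75th percentile of the array, was 4.44, 4.65, 4.66 and 4.94 in the 1 mM roots, against 1.60, 1.76, 1.89 and 1.79 in the 0.005 mM roots. Every 1 mM array stood far above every 0.005 mM array, and the spread within a group was small beside the gap. The mean was 4.67 ± 0.20 in 1 mM and 1.76 ± 0.12 in 0.005 mM (SD, n = 4 each), a log2 change of 2.91 ± 0.11 (SE) or 7.54-fold (limma adjusted p = 1.35e-07). Changes of this size were uncommon on the array, since 97.5% of all units changed by less in either direction.

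The array carries 8 probes for this locus, and all 8 rose, with log2 changes between 2.74 and 2.96. The 5 probes of transcript Os06t0336200-02, one of which is the probe above, changed by 2.74 to 2.91, and the 2 probes of transcript Os06t0336200-01 by 2.93 and 2.94. The eighth probe, of clone AK073531, is assigned to another transcript assembly. Its log2 signal was 0.81, 1.27, 1.32 and 1.68 in the 1 mM roots, against -2.01, -1.64, -1.51 and -1.61 in the 0.005 mM roots. The groups of this probe did not overlap, and its change of 2.96 ± 0.18 (SE) was close to those of the other probes. All 8 probes gave the highest value of the 1 mM group on replicate 4.

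TIP2;1, on chromosome 2, is the other locus of the subgroup that includes the ammonia channels of Arabidopsis and wheat, and it went the other way by a small amount. Its log2 signal was 4.69, 4.83, 4.68 and 4.74 in the 1 mM roots, against 5.12, 5.12, 5.05 and 5.08 in the 0.005 mM roots. All 1 mM values were below all 0.005 mM values, although by little. The mean was 4.74 ± 0.07 in 1 mM and 5.09 ± 0.03 in 0.005 mM (SD, n = 4 each), and the log2 change was -0.36 ± 0.04 (SE), which is 1.28-fold lower in 1 mM (limma adjusted p = 0.000122). The size of this change depended on the scaling between arrays, from -0.34 with the array median to -0.74 with added control RNA (spike-ins), and the locus was called lower under each.

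The second probe of the locus, of clone AK064728, had a log2 signal of 4.06, 4.29, 4.31 and 4.34 in the 1 mM roots, against 4.27, 4.49, 4.52 and 4.52 in the 0.005 mM roots. Replicate 1 was the lowest of its group in both conditions, and the ranges overlapped. The change of this probe was -0.20 ± 0.08 (SE) and did not pass the threshold (limma on every probe, adjusted p = 0.0513).

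TIP1;1, on chromosome 3, belongs to the subgroup whose Arabidopsis members conduct water and urea. Its log2 signal was 6.40, 6.51, 6.50 and 6.61 in the 1 mM roots, against 5.64, 5.69, 5.61 and 5.57 in the 0.005 mM roots. The groups were well apart, with SDs of 0.09 in 1 mM and 0.05 in 0.005 mM. The log2 change was 0.88 ± 0.05 (SE), or 1.84-fold (limma adjusted p = 1.61e-06). It was 0.44 with normexp background correction and quantile normalization, and 0.50 with spike-in scaling, and the call held under both.

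All 6 probes of this locus rose. The 4 probes of transcripts Os03t0146100-02, -04 and -05 changed by 0.85 to 0.91, and the 2 probes of transcript Os03t0146100-01 by 1.26 ± 0.07 and 1.15 ± 0.07 (SE). One of these, of clone AK068986, had a log2 signal of 3.92, 3.98, 3.93 and 4.17 in the 1 mM roots, against 2.80, 2.82, 2.68 and 2.66 in the 0.005 mM roots. Its groups did not overlap either. On each array, the mean of the 2 probes was set against the mean of the other 4, and this log2 ratio was higher in 1 mM by 0.32, with SDs of 0.06 between the 1 mM arrays and 0.08 between the 0.005 mM arrays. The contrast was chosen after its values were seen and is given without a test.

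TIP1;2, on chromosome 1, gave no settled direction. Its log2 signal was -0.21, -0.33, -0.54 and -0.53 in the 1 mM roots, against -0.39, -0.50, -0.53 and -0.52 in the 0.005 mM roots. The ranges overlapped, and the 0.005 mM range lay inside that of 1 mM. The log2 change was 0.08 ± 0.08 (SE, 95% interval -0.10 to 0.27, limma adjusted p = 0.364), so a small change either way is within the error. Without scaling between arrays the change turned to -0.19, and with spike-in scaling it was -0.30 and was called lower (limma adjusted p = 0.0471).

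The 3 probes of this locus went different ways. The brightest is the one above, of transcript Os01t0975900-01. A second probe of that transcript, of clone AB114829, had a log2 signal of -0.93, -1.15, -1.24 and -1.26 in the 1 mM roots, against -0.77, -0.95, -0.93 and -0.91 in the 0.005 mM roots. It fell by 0.25 on the log2 scale (SE 0.08, limma on every probe, adjusted p = 0.0173), although replicate 1 of 1 mM reached into the range of 0.005 mM. The probe of clone AK111768, of transcript Os01t0975900-02, had -3.80, -3.88, -4.04 and -3.99 in the 1 mM roots, against -4.36, -4.44, -4.26 and -4.31 in the 0.005 mM roots. Here the groups were apart and the probe rose by 0.42 ± 0.06 (limma on every probe, adjusted p = 0.000409).

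**Figure D2:**
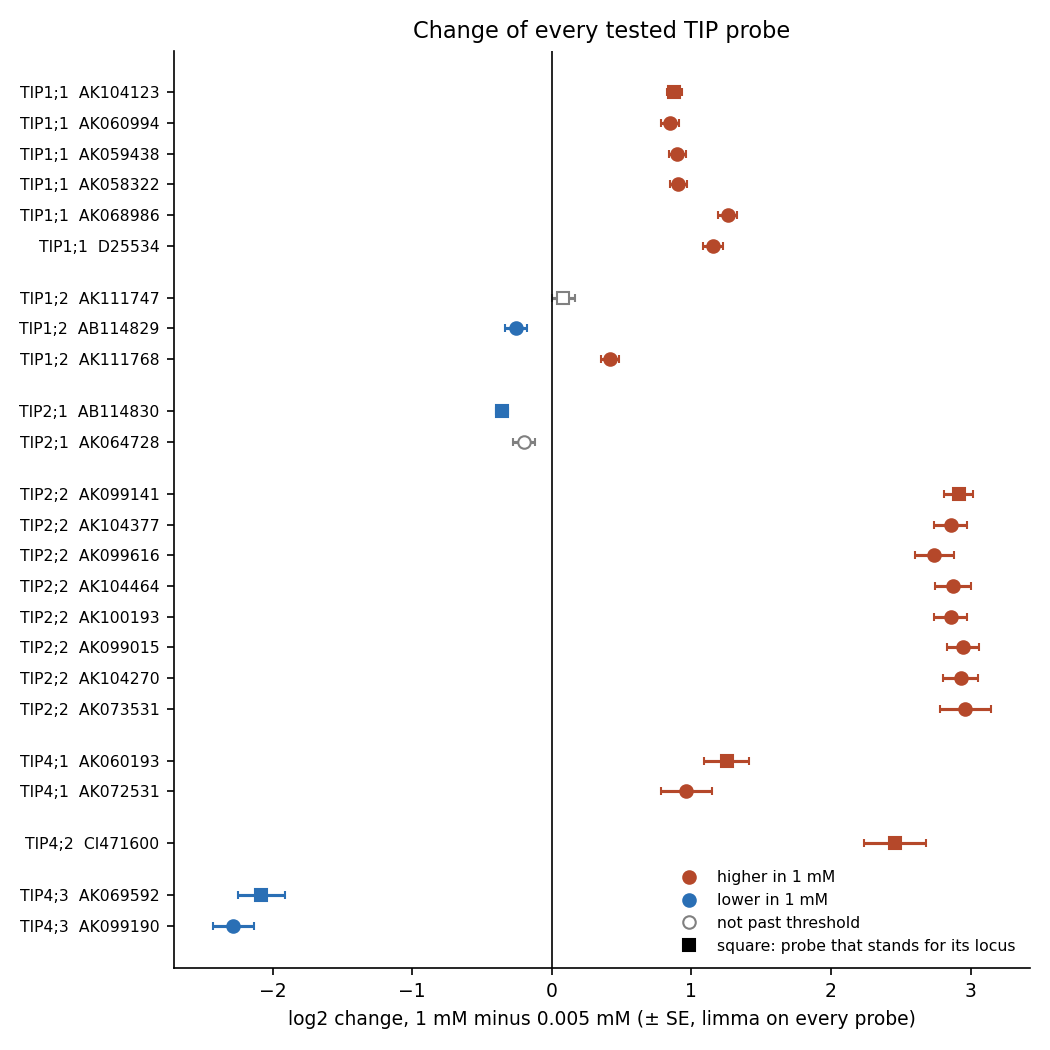
Log2 change (1 mM minus 0.005 mM, x axis) of each of the 24 tested TIP probes (rows, named by locus and clone), with SE bars from limma fitted on every probe, n = 4 per group. Colour shows the call and squares mark the probe that stands for its locus. The 8 probes of TIP2;2 lie together between 2.74 and 2.96, while the 3 probes of TIP1;2 lie on both sides of 0.

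Within the TIP4 subgroup, whose Arabidopsis member conducts urea, the 3 loci differed in direction. TIP4;1, on chromosome 5, had a log2 signal of 1.98, 2.71, 2.68 and 2.49 in the 1 mM roots, against 1.08, 1.13, 1.32 and 1.33 in the 0.005 mM roots. Replicate 1 of 1 mM was the lowest of its group, yet still above all 0.005 mM arrays. The log2 change was 1.25 ± 0.16 (SE), or 2.38-fold (limma adjusted p = 0.000133), and the highest value on leaving out 1 array was 1.41. The second probe of the locus, of clone AK072531, stood at -2.13, -1.43, -1.39 and -1.49 in the 1 mM roots, against -2.85, -2.68, -2.38 and -2.38 in the 0.005 mM roots. It showed the same low replicate 1 in 1 mM, its groups did not overlap, and it rose by 0.96 ± 0.18 (limma on every probe, adjusted p = 0.0014).

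TIP4;2 and TIP4;3 have neighbouring locus identifiers on chromosome 1, and both were dim on these arrays. Os01g0232000 is represented by a single probe, built on an expressed sequence tag and assigned to a transcript assembly (TA31004_4530). The changes of this locus and of its pairs rest on this probe alone. Its log2 signal was -3.61, -3.99, -3.82 and -4.04 in the 1 mM roots, against -6.21, -5.73, -6.58 and -6.79 in the 0.005 mM roots. It was well above background on all 8 arrays, and the groups did not overlap, although the spread was wider in 0.005 mM (SD 0.19 in 1 mM and 0.47 in 0.005 mM). The log2 change was 2.46 ± 0.22 (SE), or 5.50-fold (limma adjusted p = 1.64e-05). In processed signal units the probe stood at 196 to 296 in 1 mM and at 35.8 to 79.0 in 0.005 mM, where the dimmest spot called well above background on the 0.005 mM arrays had 15.4 to 22.5 units.

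Its neighbour Os01g0232100 did the reverse. The log2 signal was -6.76, -7.62, -7.30 and -7.36 in the 1 mM roots, against -5.07, -5.22, -5.09 and -5.33 in the 0.005 mM roots. The groups were apart, with 2 of the 4 spots of 1 mM and 4 of the 4 spots of 0.005 mM well above background. The log2 change was -2.08 ± 0.17 (SE), which is 4.23-fold lower in 1 mM (limma adjusted p = 8.81e-06).

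The second probe of Os01g0232100, of clone AK099190, was well above background on 3 of the 1 mM arrays and on all those of 0.005 mM. It had a log2 signal of -7.10, -7.32, -7.82 and -7.66 in the 1 mM roots, against -5.20, -5.16, -5.14 and -5.27 in the 0.005 mM roots. Its groups were also apart, and it changed by -2.28 ± 0.15. Sizes of change at such low signals varied with the background correction: with normexp and quantile normalization it was 1.46 for Os01g0232000 and -0.90 for Os01g0232100, and both calls held. When only loci well above background on all 8 arrays were kept, Os01g0232100 dropped out and 1 TIP locus was called lower.

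TIP3;1, on chromosome 10 and a relative of the seed TIPs of Arabidopsis, was at the edge of detection. Its 2 probes were well above background on 1 and 2 of the 4 arrays in 1 mM and on none in 0.005 mM, so it was not tested. The probe of clone AB114828 had a log2 signal of -8.41, -7.41, -7.24 and -6.79 in the 1 mM roots, against -9.65, -9.39, -9.40 and -9.86 in the 0.005 mM roots, where the spots were not well above background. The probe of clone AK111931 had -7.56, -7.95, -7.25 and -7.08 in the 1 mM roots, against -9.92, -9.59, -9.59 and -10.06 in the 0.005 mM roots. Both probes read higher on every 1 mM array, with processed signals of 10.7 to 29.2 units in 1 mM and 3.73 to 6.24 units in 0.005 mM. No fold is given, because most of these spots were not well above background in either group.

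Loci of 1 subgroup were then compared with each other within each array, because the ratio of 2 signals is unchanged by scaling with 1 factor per array. Quantile normalization can change such a ratio, and the pairs were not tested with it. With it TIP1;1 and TIP1;2 changed by 0.49 and 0.10, in place of 0.88 and 0.08, so these loci lay closer. TIP2;2 and TIP2;1 changed by 2.69 and -0.72, in place of 2.91 and -0.36. In all 5 pairs compared, the 4 ratios of 1 mM lay to 1 side of the 4 ratios of 0.005 mM. Of all single units, 71.6% had ranges that lay apart, and the share among other pairs of loci was not counted. The TIP4 pairs share loci, so the 5 pairs are not independent results. The exact permutation p, two-sided, was 0.0286 for each pair, which is as low as 4 arrays against 4 allow, and it was 0.0286 after Benjamini-Hochberg adjustment over the 5 pairs. In the TIP2 pair, TIP2;2 rose against TIP2;1 by 3.27 ± 0.12 log2 units (SE), or 9.65-fold. In the TIP1 pair, TIP1;2 changed by -0.79 ± 0.12 relative to TIP1;1. The neighbours on chromosome 1 moved apart as well, with a change of TIP4;3 relative to TIP4;2 of -4.54 ± 0.25, or 23.2-fold, with 2 of the 4 spots of the first in 1 mM not well above background. Relative to TIP4;1, the same locus changed by -3.33 ± 0.36.

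The call of the fifth pair changed with the background correction and with the array left out. TIP4;2 rose against TIP4;1 by 1.21 ± 0.38, but the difference was 0.30 with normexp background correction (exact permutation, adjusted p = 0.286). Without 1 of the 4 arrays of 1 mM it did not pass the threshold (exact permutation, adjusted p = 0.0571 in each). The values were 0.96 without replicate 1, 1.33 without replicate 2, 1.26 without replicate 3 and 1.27 without replicate 4. The groups stayed apart in each, and a p from 3 arrays against 4 moves in coarse steps. Without 1 of the 0.005 mM arrays the difference was 1.01 to 1.43 and passed (exact permutation, adjusted p = 0.0286 in each). With normexp, the change of the neighbouring pair on chromosome 1 was -2.32, that of TIP4;3 relative to TIP4;1 was -2.01 and that of the TIP2 pair was 3.32 (exact permutation, adjusted p = 0.0357 for each). The size order of the pairs thus turned with normexp and its offset of 50, the TIP2 pair then being the largest of the 5. The part of the offset in this was not tested. Probe sequences were not used here, so signal shared between probes of related TIP loci was not tested.

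**Figure D3:**
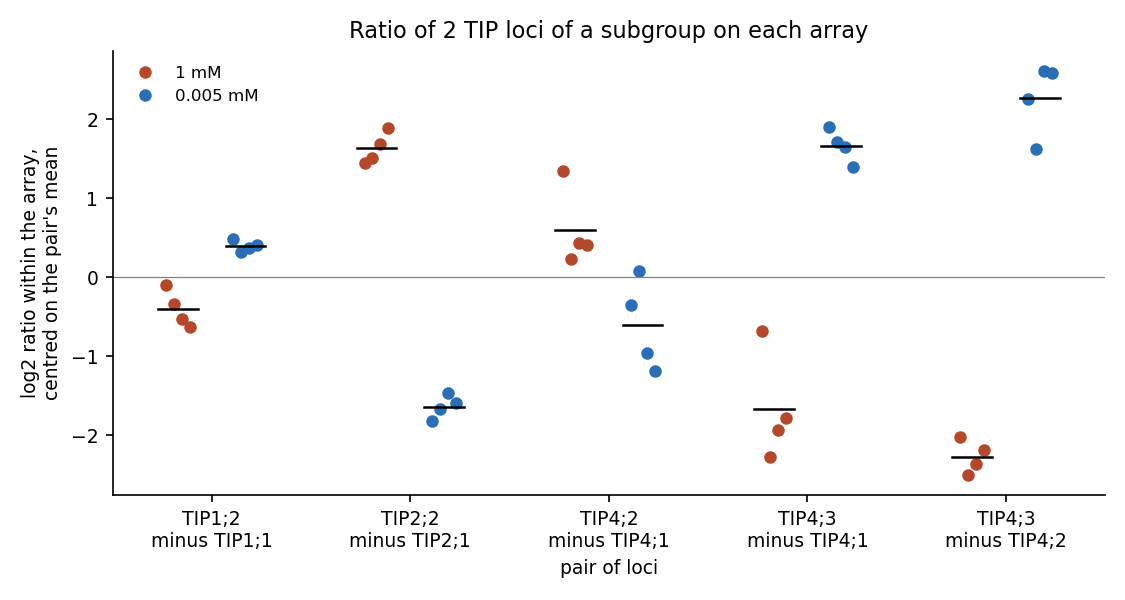
Log2 ratio of the signals of 2 TIP loci on the same array, centred on each pair's mean over the 8 arrays (y axis), for the 5 pairs within a subgroup (x axis). Points are arrays of 1 mM and 0.005 mM (n = 4 each) and black lines are group means. In each pair the points of 1 mM and of 0.005 mM do not overlap. The ratio of TIP4;3 to TIP4;2 differs by -4.54 here and by -2.32 with normexp, and that of TIP2;2 to TIP2;1 by 3.27 here and by 3.32 with normexp.

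The arrays were also taken one by one. In 1 mM, replicate 1 gave the lowest value of its group for 3 of the 7 tested loci and the highest for 3. In 0.005 mM, replicate 1 gave the highest for 3 and replicate 4 the lowest for 3. Leaving out any 1 array kept the count at 4 TIP loci higher and 2 lower. The log2 changes then lay at 2.83 to 2.99 for TIP2;2, 2.30 to 2.66 for Os01g0232000 and -2.25 to -1.96 for Os01g0232100.

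Scaling by 1 factor per array (75th percentile, median or spike-ins) shifted all loci together, and quantile normalization did not. With quantile normalization TIP2;1 changed by -0.72 in place of -0.36, and TIP4;2 by 2.44 in place of 2.46. The 75th percentile of the arrays, set against 7 spike-in probes for added control RNA, lay at -1.03 ± 0.11 log2 units in 1 mM and at -0.65 ± 0.05 in 0.005 mM (SD, n = 4 each). The gap of -0.38 had an exact permutation p of 0.0286 (two-sided, as low as the design allows). With spike-in scaling the median change of all units was -0.47 in place of -0.09. The 4 TIP loci that rose still rose, by 0.50 for TIP1;1, 2.53 for TIP2;2, 0.87 for TIP4;1 and 2.08 for TIP4;2. Of all calls, 42.4% were higher with the 75th percentile, 24.9% without scaling and 20.0% with spike-ins. Among the TIP loci the split was 4 higher and 2 lower with the 75th percentile and without scaling, and 4 higher and 3 lower with spike-ins, where Os01g0975900 joined those that fell.

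**Figure D4:**
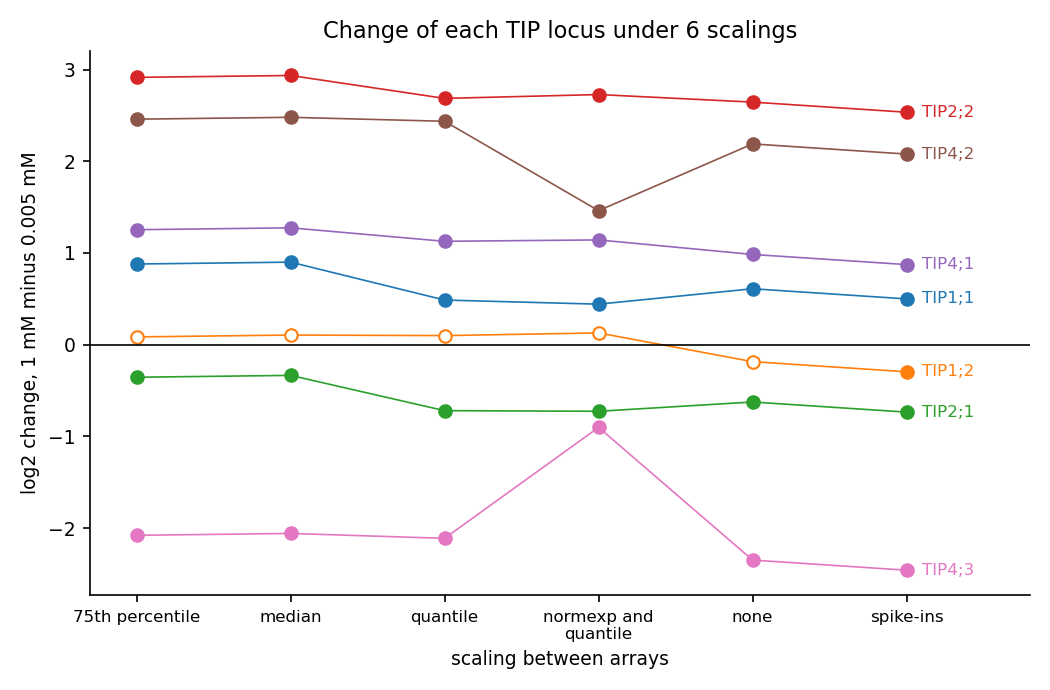
Log2 change (1 mM minus 0.005 mM, y axis) of the 7 tested TIP loci under 6 ways of scaling the arrays (x axis). Filled points passed an adjusted p of 0.05 in limma and open points did not. In the plot 6 loci kept their direction and call throughout, and TIP1;2 went below 0 without scaling and with spike-ins.

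The other aquaporins of the array give the setting for these values. The remaining 2 TIP loci listed, Os04g0527900 and Os04g0550800, were dim. The first fell by 0.43 on the log2 scale (SE 0.11, limma adjusted p = 0.00738) and the second rose by 0.70 (SE 0.22, limma adjusted p = 0.0193). Of 11 loci listed as PIPs, the aquaporins of the plasma membrane, 9 were tested, 3 rose, 4 fell and 2 did not pass. Their changes lay between -0.89 and 0.62 with a median of -0.14. Of 8 loci listed as NIPs, some of which carry small uncharged molecules such as silicic acid, 5 were tested, 3 rose and 2 fell, with a median of 0.72. Of the 2 SIP loci, small intracellular aquaporins, 1 fell and 1 did not pass. Of all units, 32.2% were called higher, 43.8% lower and 76.1% in either direction. The counts are therefore not read as a result about any of these subfamilies.

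The listed aquaporins outside the TIPs that rose most were NIP1;1 (Os02g0232900) by 1.52 ± 0.10 and NIP2;2 (Os06g0228200) by 0.78 ± 0.09 (SE, limma adjusted p = 3.18e-06 and 4.97e-05). The first is dim, at -4.73 ± 0.15 in 1 mM and -6.24 ± 0.17 in 0.005 mM (SD, n = 4 each). Those that fell most were PIP1;3 (Os02g0823100), at -0.89 ± 0.10, and NIP2;1 (Os02g0745100), the silicon influx channel of rice roots, at -0.77 ± 0.08 (SE, limma adjusted p = 4.56e-05 and 2.72e-05).

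**Figure D5:**
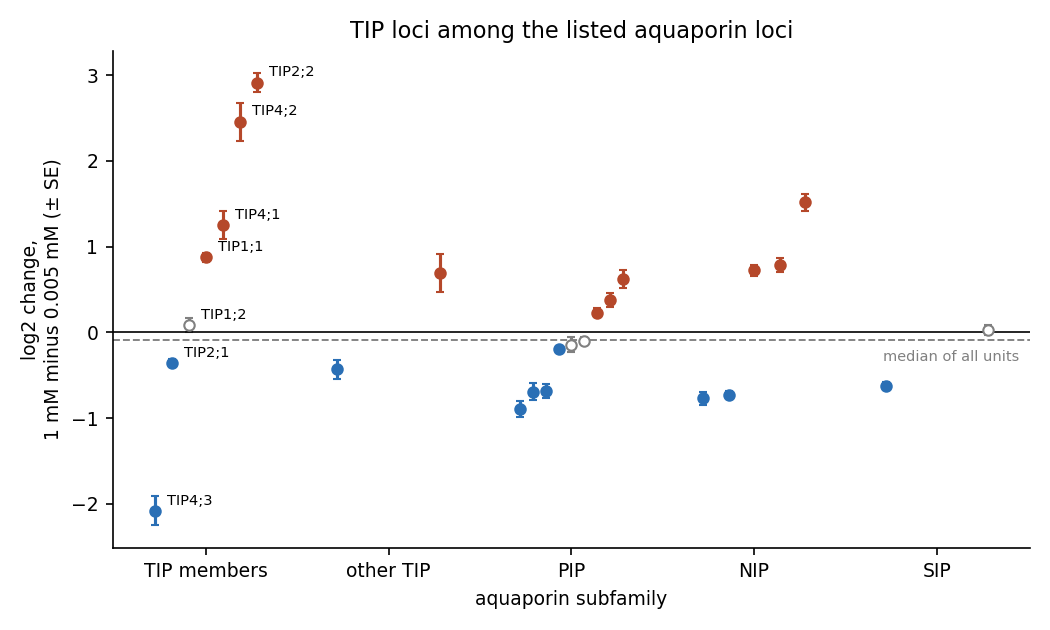
Log2 change (1 mM minus 0.005 mM, y axis, ± SE from limma, n = 4 per group) of each tested aquaporin locus by subfamily (x axis), with colours as in the plot of probes and open points not past the threshold. The dashed line is the median of all units at -0.09. The TIP loci span -2.08 to 2.91 and the PIP loci -0.89 to 0.62. The value of -2.08 is that of TIP4;3, with 2 of its 4 spots in 1 mM well above background. It was -0.90 with normexp and quantile normalization.

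Each of the 2 TIP loci with the largest change was also set against all other loci by the root mean square difference of their values over the 8 arrays, after centring each locus on its own mean. The locus nearest to TIP2;2 was Os12g0437800, at 0.07 log2 units and with a change of 2.96 ± 0.11, and 104 loci lay within 0.25 log2 units. The nearest to TIP4;2 was Os02g0124600, at 0.17 log2 units and with a change of 2.35 ± 0.13, and 8 loci lay within 0.25 log2 units. The 8 arrays form only 2 groups, so loci with an equal difference between the groups lie close by this measure.

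The authors' deposited table lists spots with a q-value under 0.05 in their own comparison, with a log2 ratio of the nitrogen sufficient over the nitrogen deficient average, read here as 1 mM over 0.005 mM. It holds 23 of the 26 TIP probes, where it holds 64.9% of all non-control spots. In the authors' deposited table the log2 ratios were 2.62 to 2.85 for the 8 probes of Os06g0336200, 0.71 to 1.13 for the 6 probes of Os03g0146100 and 0.84 and 1.14 for the 2 probes of Os05g0231700. The authors' deposited table gives 2.28 for Os01g0232000 and -2.39 and -2.18 for Os01g0232100. Both probes of Os02g0658100 are in the authors' deposited table as lower, at -0.49 and -0.33, where the second did not pass the fit used above. For Os01g0975900 the authors' deposited table holds 1 probe as lower (-0.38) and 1 as higher (0.28), and its brightest probe and both probes of Os10g0492600 are not listed.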

How the data were processed

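Each of the 8 samples is 1 array. The deposited array files give the intensity of every spot on a linear scale, read with Agilent Feature Extraction 10.10.1.1 as the authors' scanner software, per the file headers, and the processed signal already has background subtracted. The authors' deposited table gives for each spot a log2 ratio, a p-value and a q-value. The test behind it is not given in the sources used here. Its 8 columns of scaled signals were left unused, since no sample title matches their names.

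Values are log2 processed signal minus the array's 75th percentile over 43734 non-control spots. Outlier-flagged spots were left out, and the remaining spots of a probe were averaged. Probes left with no spot on some array (162, no TIP probe) were dropped. Kept probes were well above background on 4 or more of the 8 arrays, and the brightest kept probe by mean signal represented its locus. Two-sided limma 3.58.1 (R 4.3.3, lmFit then eBayes) was run over all 24937 units with Benjamini-Hochberg adjustment and a threshold of 0.05, and again with every probe as a unit. The code was tested on simulated data. For the locus with no spot well above background in 0.005 mM, no fold is given, and its log2 change appears only under the alternative without a filter.

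The members and the lists of other aquaporins and tissue markers were chosen with earlier results of these data known, and the loci of those lists come from general knowledge. Besides the members, the text names the locus nearest in pattern to each of the 2 TIP loci with the largest change, and the 2 other listed aquaporins that rose and the 2 that fell most. It also names the 4 root markers. Normexp used the median spot signal with an offset of 50. The smallest exact p depends on the number of arrays, which limits the precision. No sequence was used here.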

Additional observations from a re-analysis of the deposited data

How the results depend on the processing

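Of the 7 tested TIP loci, 6 kept their direction and call under each of the 21 alternatives that kept them in the fit, and the seventh, Os01g0975900 (TIP1;2), turned to -0.19 without scaling between arrays and to -0.30 with spike-in scaling, settings that shift all loci together. Over all units these settings gave 4873 and 4011 higher, against 8032. Asking for all 8 arrays well above background left 1 TIP locus lower, because Os01g0232100 (TIP4;3) was dropped. The difference of TIP4;2 from TIP4;1 was 0.30 with normexp, a setting chosen after seeing the data, and 0.96 to 1.43 without 1 array. Normexp used an offset of 50, and the TIP4;2 probe stood at 35.8 to 79.0 processed signal units in 0.005 mM. The part of this offset in the smaller difference was not tested, nor was any other cause. Without 1 array, the TIP1 pair differed by -0.89 to -0.72, the TIP2 pair by 3.18 to 3.33, TIP4;3 from TIP4;1 by -3.66 to -3.13, and the neighbours on chromosome 1 by -4.75 to -4.42. Log2 changes without 1 array were 0.84 to 0.91 for Os03g0146100, 0.021 to 0.13 for Os01g0975900, -0.39 to -0.34 for Os02g0658100 and 1.17 to 1.41 for Os05g0231700.

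Replicate numbers were not taken as pairs, since the labels give no pairing beyond the numbers. Samples of the same number had deviations that correlated at 0.32, -0.01, 0.10 and 0.08. The highest correlations with a sample of another number were 0.01, 0.09, 0.10 and 0.10, so replicate 1 stood above its own. With the replicate block in limma, 8094 units were higher and 11004 lower, against 8032 and 10933, and the TIP calls were the same. Pairing the ratios by replicate number left the 5 differences at -0.79, 3.27, 1.21, -3.33 and -4.54 (replicate block, exact sign-flip permutation p = 0.125 in each, the smallest that 4 pairs allow), so this alternative could not pass the threshold. Without a filter on dim probes Os10g0492600 (TIP3;1) entered the fit and was called higher at 2.11 (limma adjusted p = 0.00068). Its 2 probes were well above background on 1 and 2 of the 4 arrays in 1 mM and on none in 0.005 mM. This value is therefore not read as a fold, nor the call as a result. The slide was not fitted as a block, as each group had its own slide. Signal over background limits Os10g0492600, Os01g0232000 and Os01g0232100. Among 18 groups of 4 values of the TIP probes shown, 0 held a value past Dixon's critical value.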
